A study of Mus musculus with 10 samples.

Results

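The microRNAs of a Lin28a-overexpressing neural stem cell culture were compared between passage 3 (P3) and passage 1 (P1). A microRNA entered the comparison when it reached 10 CPM (reads on the mature microRNA scaled to 1000000 such reads of the library) in the P3 or the P1 library. This gave 424 of the 1125 microRNAs listed in either Lin28a library and of the 1209 listed in any of the 4 small RNA libraries of the study. The cells were neural stem cells of the ventral midbrain, taken from ICR mouse embryos at embryonic day 10. The groups used were 4, each with 1 small RNA library and 1 RNA-seq library: P3 and P1 of the culture transduced with a lentivirus expressing Lin28a, and P3 and P1 of the culture given a mock control lentivirus. All groups share the strain, the embryonic day, lentiviral transduction and expansion in vitro. Not given are the pooling of embryos, the promoter of the virus and the share of cells that it reached. With 1 library a group there is no replicate, so no test was run and every difference describes these libraries.

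MicroRNAs are short RNAs that are cut from a hairpin precursor and guide the Argonaute protein to messenger RNAs, mainly through the seed, bases 2 to 8 of the guide. Lin28a, an RNA-binding protein found in embryos and in stem cells, binds let-7 precursors and blocks their maturation, in many of them through a GGAG motif in the terminal loop. Let-7 in turn is a large family of microRNAs that accumulates as cells of the embryo differentiate, and neural progenitors are among the cells in which the pair has been studied.

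The sequences of the 9 let-7 guide strands measured are shown first, because their common seed is what makes them 1 family while the other bases tell the members apart. They were taken from RefSeq (GRCm38.p6), are written 5′ to 3′, and have the seed in capitals.
let-7a-5p: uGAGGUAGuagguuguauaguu
let-7b-5p: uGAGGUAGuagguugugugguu
let-7c-5p: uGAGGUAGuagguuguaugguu
let-7d-5p: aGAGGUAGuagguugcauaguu
let-7e-5p: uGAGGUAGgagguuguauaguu
let-7f-5p: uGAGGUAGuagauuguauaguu
let-7g-5p: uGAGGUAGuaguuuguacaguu
let-7i-5p: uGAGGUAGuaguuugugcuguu
miR-98-5p: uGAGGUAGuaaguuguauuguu
All 9 have the seed GAGGUAG. Counted from 1 at the 5′ end and read from let-7a, let-7c differs by A19G and let-7b by A17G and A19G. The other guides differ from let-7a by U9G in let-7e, G12A in let-7f, U1A and U16C in let-7d, G12U and U18C in let-7g, G11A and A19U in miR-98, and G12U, A17G, U18C and A19U in let-7i. Single-base differences such as these mean that the split of reads between members rests on exact alignment.

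Reads on the mature microRNAs numbered 8542827 in P3 Lin28a, 8288819 in P1 Lin28a, 8288085 in P3 control and 6322534 in P1 control, so 1 read was worth 0.117 to 0.158 CPM. The 424 microRNAs held 99.9% of the reads of the Lin28a libraries, and each had at least 115 reads over both. A microRNA with several genomic loci appears to be counted at each of them, which leaves the ratio of 2 libraries usable but not a ranking of microRNAs by level. The 10 most abundant microRNAs took 46.5% to 49.0% of the reads of each of the 4 libraries. RNA-seq of the same groups followed the labels: Lin28a was at 104 FPKM (fragments per length of transcript and per library size) in P3 Lin28a and 478 in P1 Lin28a, against 0.0620 in P3 control and 0.128 in P1 control. In the transduced culture the Lin28a transcript was thereby lower at P3 (log2 ratio of FPKM + 1, -2.19). All 9 neural stem cell markers checked were above 1 FPKM in both Lin28a libraries, with levels above those of P1 at P3 for Sox2 (372 at P3, 260 at P1) and 5 others, and below for Nes, Hes1 (31.6 and 47.8) and Msi1 (97.7 and 143).

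A microRNA is called higher or lower at P3 here when log2(CPM + 1) at P3 minus that at P1 is at least 1 in size, a 2-fold difference on that scale. Values in parentheses after levels are these log2 ratios. In the Lin28a culture 55 of 424 microRNAs were higher at P3 (13.0%), 75 were lower (17.7%) and 294 lay within 2-fold. The log2 ratios had a median of -0.11, quartiles of -0.77 and 0.44, and ran from -2.92 for miR-708-3p to 4.89 for miR-184-3p. The balance depends on the scaling: with TMM scaling, which sets the trimmed mean of the ratios to 0 and shifts all of them by 0.19, 70 were higher and 52 lower, so that higher ones made up 57.4% of the calls in place of 42.3%. Among the 238 microRNAs at 100 CPM or more in either library, 30 were higher (12.6%) and 38 lower (16.0%). At the 10 CPM rule the nearest microRNAs inside were miR-3068-5p (10.2 CPM at P3, 5.67 at P1), miR-208b-3p (2.81, 11.0) and miR-32-3p (11.4, 10.5). Just outside were miR-6996-5p (9.60, 3.26), miR-3074-1-3p (8.43, 9.53) and miR-24-1-5p (6.79, 9.29).

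**Figure D1:**
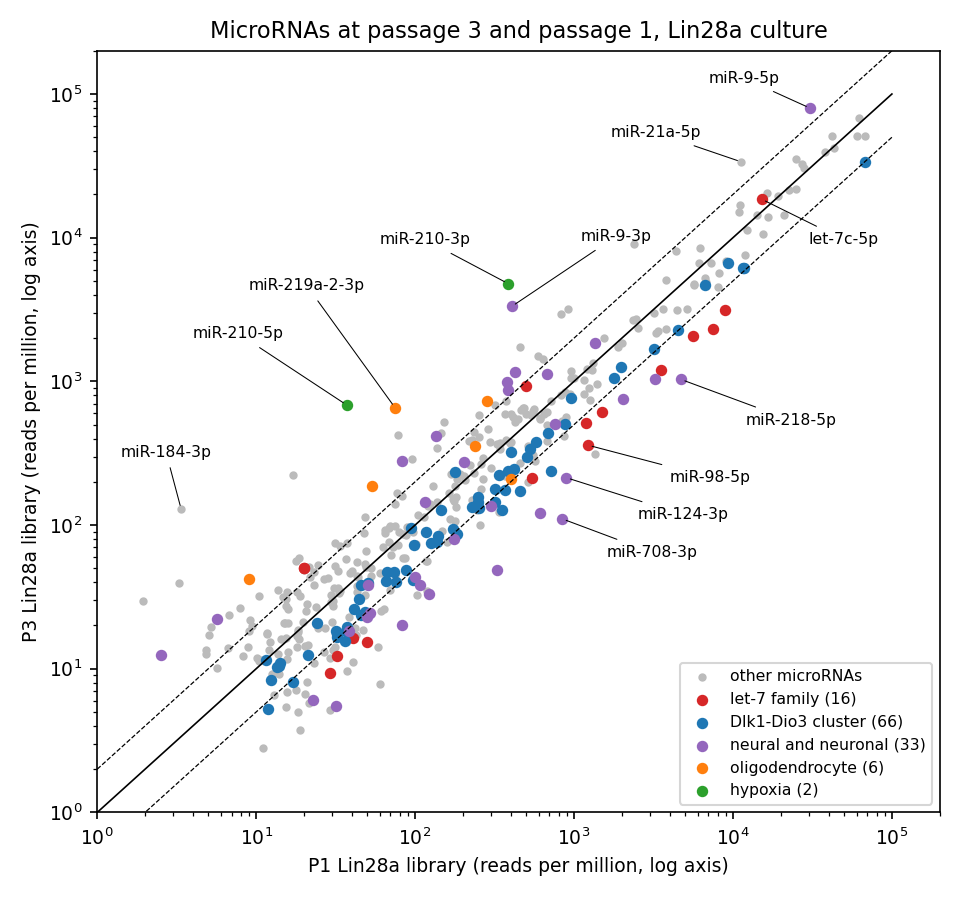
Each of the 424 microRNAs by its CPM in P1 Lin28a (x, log axis) and P3 Lin28a (y, log axis), 1 library each. The solid line marks equal levels and the dashed lines 2-fold. MiR-210, miR-9-3p, miR-219a-2-3p and miR-184-3p stand above the upper line, and 7 of the 9 let-7 guides below the lower one.

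Most let-7 guides were lower at P3 than at P1 in the Lin28a culture, while let-7b and let-7c were not. Of the 9 guides 7 were lower past 2-fold, with log2 ratios of -1.19 to -1.77. The lowest ratio was that of miR-98-5p, a let-7 family guide from chromosome X, with 359 CPM in P3 Lin28a and 1227 in P1 Lin28a, against 3707 in P3 control and 1697 in P1 control. Its fold of P3 over P1 was 0.293 in the Lin28a culture (95% counting interval 0.281 to 0.305). Let-7i-5p was at 2324 CPM in P3 Lin28a and 7513 in P1 Lin28a, against 22426 in P3 control and 10612 in P1 control. P3 Lin28a was the lowest of the 4 libraries for both guides and P3 control the highest.

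The same order of libraries was found for let-7a, let-7d, let-7f and let-7g: P3 Lin28a lowest, then P1 Lin28a, P1 control and P3 control. Let-7a-5p was at 2075 CPM in P3 Lin28a, 5627 in P1 Lin28a, 15412 in P3 control and 6672 in P1 control. Let-7f-5p was at 3133, 8897, 26867 and 13619 CPM in the same libraries. Let-7g-5p was at 1191 CPM in P3 Lin28a, 3502 in P1 Lin28a, 6193 in P3 control and 4739 in P1 control, so in control it lay within 2-fold (0.39). For let-7e-5p the P1 libraries were nearly equal, with 609 CPM in P3 Lin28a, 1497 in P1 Lin28a, 2445 in P3 control and 1409 in P1 control. Let-7d-5p had the smallest ratio of the 7, -1.19, with 516 and 1181 CPM in P3 and P1 Lin28a and 4939 and 1668 CPM in P3 and P1 control.

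Let-7b-5p and let-7c-5p had ratios above 0. Let-7b-5p was at 931 CPM in P3 Lin28a and 500 in P1 Lin28a, a log2 ratio of 0.90, against 7000 in P3 control and 909 in P1 control, where the ratio was 2.94. Let-7c-5p was at 18518 CPM in P3 Lin28a and 15171 in P1 Lin28a (0.29), against 36399 and 13903 in P3 and P1 control (1.39). Both ratios were thus above 0 in both cultures, past 2-fold in control and within 2-fold in the Lin28a culture. For let-7b-5p this depends on the scaling. Its Lin28a ratio passed 2-fold with TMM scaling, and with median centring, which raises all ratios by 0.11. Let-7c-5p made up 62.4% of the let-7 guide reads in P3 Lin28a and 33.6% in P1 Lin28a, against 29.0% in P3 control and 25.2% in P1 control. Let-7c and let-7f have 2 RefSeq loci each, at which a read may be counted. Let-7a-5p has 1 locus in the sequences used, yet its 17726 mature reads in P3 Lin28a exceed its 8905 hairpin reads. It too appears counted more than once, so shares within the family are approximate.

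**Figure D2:**
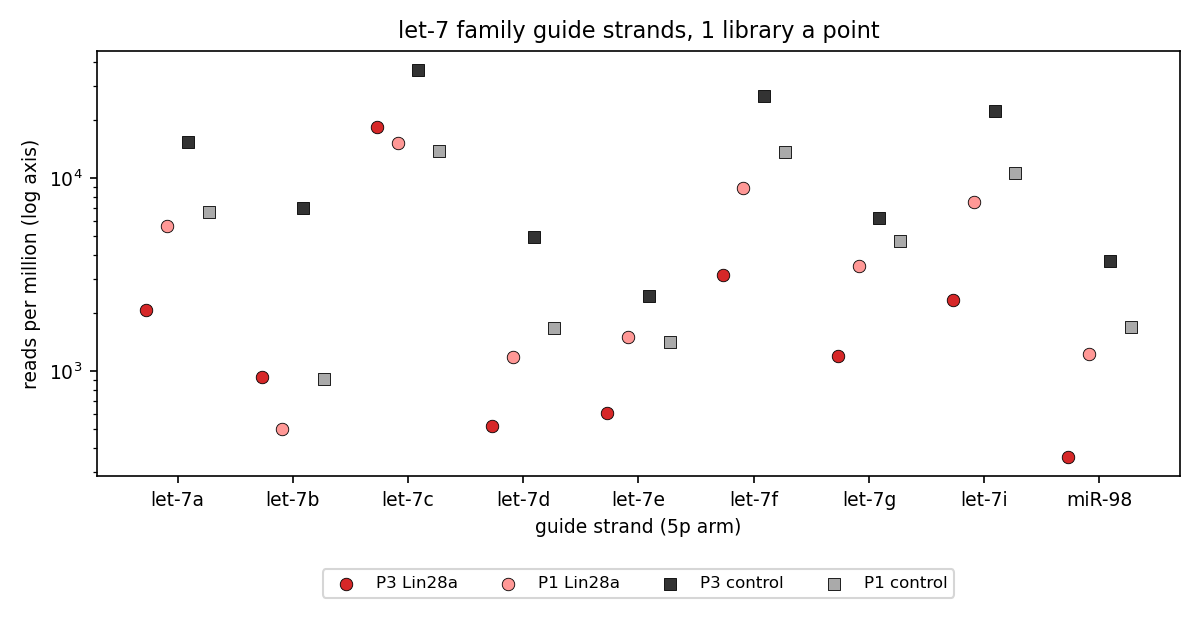
CPM (log axis) of the 9 let-7 family guide strands in the P3 Lin28a, P1 Lin28a, P3 control and P1 control libraries, 1 point a library. P3 Lin28a is the lowest of the 4 libraries for 7 guides, and for let-7b and let-7c it lies above P1 Lin28a.

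Summed over the 9 guides, let-7 took 2.97% of microRNA reads in P3 Lin28a and 4.51% in P1 Lin28a, against 12.5% in P3 control and 5.52% in P1 control. The fold of P3 over P1 was 0.657 in the Lin28a culture (counting interval 0.654 to 0.661) and 2.27 in control (2.26 to 2.28). Without let-7b and let-7c the share was 1.02% in P3 Lin28a and 2.94% in P1 Lin28a, a fold of 0.347, against 8.20% in P3 control and 4.04% in P1 control, a fold of 2.03. Let-7b and let-7c alone took 1.94% in P3 Lin28a and 1.57% in P1 Lin28a, against 4.34% in P3 control and 1.48% in P1 control. The summed share therefore hides a larger difference in the 7 other guides. Such intervals cover counting error only, and may be too narrow where reads were counted at more than 1 locus.

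The let-7 list holds 22 listed microRNAs, of which 16 passed the 10 CPM rule. Of these 16, 12 were lower and 2 higher at P3 in the Lin28a culture (75% and 12.5%, against 17.7% and 13.0% of all 424), with a median of -1.33 against -0.11 over all 424. In control 1 was lower and 9 higher, against 28.8% and 25.7% of all 424 (median 1.10). The passenger strands, the hairpin arms that are mostly discarded, had ratios of -1.27 for let-7i-3p, -1.32 for let-7e-3p, -1.35 for let-7d-3p, -1.54 for miR-98-3p and -1.62 for let-7c-1-3p. Both arms of the let-7d, let-7e, let-7i and miR-98 hairpins were thus lower past 2-fold in the Lin28a culture. In control let-7i-3p was higher (1.33) and miR-98-3p lower (-1.32). Let-7d-3p (0.21), let-7e-3p (0.42) and let-7c-1-3p (0.30) lay within 2-fold there. The 2 called higher in the Lin28a culture were let-7a-1-3p and let-7c-2-3p, at 50.3 CPM in P3 Lin28a and 19.9 in P1 Lin28a (1.30). With reads counted on the primary hairpin, 16 of 21 of the list were lower and none higher (99 and 78 of all 554). A hairpin count does not separate the 2 arms: let-7c-5p and let-7c-1-3p both have 79870 in P3 Lin28a and 64099 in P1 Lin28a. It therefore cannot check a call on a passenger strand, and the 16 of 21 can hold 1 hairpin more than once. Let-7a-1-3p and let-7c-2-3p have identical counts in all 4 libraries, and so cannot be told apart as products of let-7a-1 or let-7c-2.

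The hairpins of these guides differ in the GGAG motif. A window of 30 bases is shown for 6 of them, with GGAG in capitals where present, aligned on the start of the 3p-side stem that follows it (RefSeq, GRCm38.p6). The first 3 belong to guides that were lower at P3 in the Lin28a culture, let-7b and let-7c-2 to guides that were not, and miR-98 to the guide with the lowest ratio.
let-7g hairpin: uaccacccgguacaGGAGauaacuguacag
let-7i hairpin: acauugcccgcuguGGAGauaacugcgcaa
let-7d hairpin: gauuuugcccacaaGGAGuuaacuauacga
let-7b hairpin: gauguugccccuccgaagauaacuauacaa
let-7c-2 hairpin: gcucugccccgcucugcgguaacuauacaa
miR-98 hairpin: uuaggccccaguaagaagauaacuauacaa
The sequences used hold 11 hairpins with a measured guide, which need not be all of them, as for let-7a. Searched on the RNA strand only, GGAG stood after the guide in 8 of the 11 (let-7a-1, let-7c-1, let-7d, let-7e, let-7f-1, let-7f-2, let-7g and let-7i). It was not found in let-7b, let-7c-2 or miR-98. MiR-98 thus lacks these letters and had the lowest ratio, and let-7c comes from 1 hairpin with GGAG and 1 without. GGAG is common in such sequences: 447 of 1005 mouse hairpins in the table hold it somewhere (44.5%). A match of letters is a description and does not show binding.

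Neighbours of let-7 in its own clusters were read beside it. MiR-99a, miR-99b, miR-100 and the miR-125 microRNAs are encoded in clusters with let-7 members. The 10 of 11 listed that passed the rule all lay within 2-fold in the Lin28a culture, with a median of -0.42 and a range of -0.63 to 0.15. MiR-99b-5p was at 51161 CPM in P3 Lin28a and 67249 in P1 Lin28a (-0.39), and miR-125a-5p at 4947 and 6740 (-0.45), while let-7e-5p from the same cluster on chromosome 17 was at -1.30. MiR-99a-5p, next to let-7c-1 on chromosome 16, was at 14468 CPM in P3 Lin28a and 14171 in P1 Lin28a (0.03). The host gene of miR-98, Huwe1, a ubiquitin ligase, was at 32.5 FPKM in P3 Lin28a and 41.9 in P1 Lin28a (log2 ratio of FPKM + 1, -0.36).

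MiR-184-3p, miR-210, miR-3093 and miR-9-3p had some of the highest ratios at P3, and miR-338 and miR-21a are the glial ones described after them. Their mature sequences are printed because the arms of miR-9 and of miR-210 are counted apart. The seed is again in capitals.
miR-184-3p: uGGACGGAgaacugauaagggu
miR-210-5p: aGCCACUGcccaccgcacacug
miR-210-3p: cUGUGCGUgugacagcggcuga
miR-3093-5p: cGCACCCCgcggagcucacacu
miR-9-5p: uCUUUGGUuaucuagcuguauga
miR-9-3p: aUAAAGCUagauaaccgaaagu
miR-338-3p: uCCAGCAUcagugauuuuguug
miR-21a-5p: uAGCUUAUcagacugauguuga
MiR-210, the microRNA best known for its induction by hypoxia-inducible factor, was higher at P3 in both arms. MiR-210-3p was at 4791 CPM in P3 Lin28a and 385 in P1 Lin28a, a 12.5-fold difference (12.0 to 12.9), against 6122 in P3 control and 337 in P1 control. MiR-210-5p was at 684 CPM in P3 Lin28a and 37.2 in P1 Lin28a, against 491 in P3 control and 48.7 in P1 control. Both P3 libraries were above both P1 libraries for each arm.

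MiR-184-3p had the highest ratio of the 424, 4.89 in Lin28a and 4.86 in control. It rests on few reads at P1, with 1097 reads in P3 Lin28a and 28 in P1 Lin28a (128 and 3.38 CPM), a 38.0-fold difference (26.2 to 57.5). MiR-9, abundant in neural progenitors and known to act on the progenitor factors Tlx and Hes1, had the most counts of any microRNA in P3 Lin28a, with 3 RefSeq loci at which a read may be counted. MiR-9-5p was at 79703 CPM in P3 Lin28a and 30585 in P1 Lin28a (1.38), against 83788 in P3 control and 33496 in P1 control. MiR-9-3p was at 3327 CPM in P3 Lin28a and 406 in P1 Lin28a (3.03), against 3975 in P3 control and 608 in P1 control. MiR-3093-5p, whose hairpin lies within 10 kb of a miR-9 hairpin on chromosome 3, was at 224 CPM in P3 Lin28a and 17.0 in P1 Lin28a (3.64), against 175 and 19.5 CPM in P3 and P1 control. MiR-8115, of unknown function, was at 3.38 and rests on 252 reads in P3 Lin28a and 16 in P1 Lin28a.

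The 2 arms of miR-9 did not keep their ratio. The 3p arm made up 4.01% of miR-9 reads in P3 Lin28a and 1.31% in P1 Lin28a, against 4.53% in P3 control and 1.78% in P1 control. Of 120 hairpins with both arms among the 424, 99 had arms of the same sign, and the 2 ratios correlated (Pearson r 0.919, Spearman rho 0.881), as a description over arms that share libraries and precursors. The median difference in size between arms was 0.24. It was at least 1 for 3 hairpins, miR-9 (1.65, 3p minus 5p), miR-199b (-1.42) and miR-362 (-1.19). MiR-199b-3p and miR-199a-3p have the same mature sequence, so the 3p value cannot be assigned to the miR-199b hairpin.

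Glial microRNAs included several that were higher at P3 and none that was lower. In a bulk culture, more cells of a type and more RNA per cell cannot be told apart. Of 6 microRNAs known from oligodendrocytes, 4 were higher and none lower in the Lin28a culture (13.0% and 17.7% of all 424), with a median of 1.58. In control 4 were higher (25.7% of all 424), with a median of 1.85. MiR-219a-2-3p, of the miR-219 family that promotes oligodendrocyte differentiation, was at 657 CPM in P3 Lin28a and 74.7 in P1 Lin28a (3.12), against 757 in P3 control and 67.4 in P1 control. MiR-338-3p, which acts with miR-219 in that differentiation, was at 188 CPM in P3 Lin28a and 53.5 in P1 Lin28a (1.79), against 411 and 76.9 CPM in P3 and P1 control. MiR-219a-1-3p, from the other miR-219a hairpin, was at 208 CPM in P3 Lin28a and 403 in P1 Lin28a (-0.95).

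Of 12 astroglial microRNAs 5 were higher, 7 lay within 2-fold and none was lower in the Lin28a culture (median 0.98), beside the same shares of all 424. In control 7 were higher and 1 lower (25.7% and 28.8% of all 424), with a median of 1.46. With hairpin reads 8 of 19 were higher in Lin28a (78 of all 554), where 1 hairpin can count more than once. With TMM scaling and with median centring 7 of 12 were higher there, against 70 and 68 of all 424. MiR-21a-5p, known from reactive astrocytes and from growth in many cell types, was at 33699 CPM in P3 Lin28a and 11291 in P1 Lin28a (1.58), against 83444 in P3 control and 14949 in P1 control. MiR-21a-3p was at 425 and 77.7 CPM in P3 and P1 Lin28a (2.44). Levels at P3 were thus lower in the Lin28a culture than in control for miR-21a. MiR-29b-3p, which targets collagens, was at 32.2 CPM in P3 Lin28a and 10.5 in P1 Lin28a (1.53), against 74.6 and 7.91 CPM in P3 and P1 control.

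Neural and neuronal microRNAs split into both directions. Of 42 listed, 33 passed the rule, with 9 higher and 18 lower at P3 in the Lin28a culture (27.3% and 54.5%, against 13.0% and 17.7% of all 424; median -1.07). With TMM scaling 12 in place of 18 were lower. In control 10 were higher and 19 lower, against 25.7% and 28.8% of all 424 (median -1.48). Sequences are given for 4 with low ratios that RefSeq holds, and for miR-1251-5p, which is on none of the lists.
miR-708-3p: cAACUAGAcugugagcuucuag
miR-708-5p: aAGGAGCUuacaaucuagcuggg
miR-218-5p: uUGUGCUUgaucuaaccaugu
miR-135a-5p: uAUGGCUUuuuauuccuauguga
miR-1251-5p: aCUCUAGCugccaaaggcgcu
MiR-708-3p was the lowest of all 424, with 110 CPM in P3 Lin28a and 844 in P1 Lin28a (-2.92), against 54.3 in P3 control and 670 in P1 control. MiR-218-5p, which is enriched in motor neurons, was at 1032 CPM in P3 Lin28a and 4709 in P1 Lin28a (-2.19), against 693 and 3243 CPM in P3 and P1 control. MiR-124-3p, a defining microRNA of neurons, was at 214 CPM in P3 Lin28a and 895 in P1 Lin28a (-2.06), against 70.5 in P3 control and 648 in P1 control. For all 3 the P3 libraries lay below the P1 libraries, and P3 Lin28a above P3 control. MiR-708-5p was at 48.3 CPM in P3 Lin28a and 328 in P1 Lin28a (-2.74), against 64.4 and 209 in P3 and P1 control (-1.68). For this arm P3 Lin28a thus lay below P3 control.

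MiR-135b-5p was at 122 CPM in P3 Lin28a and 615 in P1 Lin28a (-2.33), and miR-135a-5p at 1046 and 3215 (-1.62). MiR-135a is known as a regulator of Lmx1b and Wnt signalling in the midbrain of mouse embryos. The midbrain factors themselves were also lower in RNA-seq, with Foxa2 at 3.64 FPKM in P3 Lin28a and 15.9 in P1 Lin28a and Lmx1a at 14.2 and 31.5. MiR-1251-5p was at 314 CPM in P3 Lin28a and 1355 in P1 Lin28a (-2.11), against 150 and 544 CPM in P3 and P1 control. Higher at P3 were miR-132-3p (868 and 381 CPM in P3 and P1 Lin28a, 1.18) and miR-212-3p (277 and 82.4, 1.74). Both come from 1 cluster on chromosome 11 that is known to respond to neuronal activity through CREB. All 4 of their arms were higher in each culture, beside 13.0% of all 424 in Lin28a and 25.7% in control.

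Of the imprinted clusters, the Dlk1-Dio3 list had mostly small ratios below 0 and the Sfmbt2 list larger ones. The Dlk1-Dio3 region on chromosome 12 encodes a long series of microRNAs expressed from the maternal chromosome. Of 94 listed, 66 passed the rule, and 63 of these had ratios below 0 in the Lin28a culture, against 235 of all 424. Of the 66, 10 were lower past 2-fold (15.2%, against 17.7% of all 424) and none higher (median -0.76, against -0.11), so the count of calls was near that of all microRNAs. In control 51 of the 66 were lower and none higher (median -1.69), against 28.8% lower and 25.7% higher of all 424. Their summed level was 70675 CPM in P3 Lin28a and 129497 in P1 Lin28a, against 29037 in P3 control and 99840 in P1 control. At P3 the summed level was thus higher in Lin28a than in control. The member with the most reads, miR-127-3p, was at 33554 CPM in P3 Lin28a and 67254 in P1 Lin28a. This is a fold of 0.499 (0.497 to 0.501) and lies on the 2-fold line.

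MiR-758-3p had the lowest ratio of the region in both cultures, with 238 CPM in P3 Lin28a and 718 in P1 Lin28a (-1.59), against 47.5 in P3 control and 858 in P1 control (-4.15). With TMM scaling the median of the 66 was -0.57 in the Lin28a culture, and 4 in place of 10 were lower past 2-fold (6 with median centring). Of all 424, 52 were lower with TMM scaling and 58 with median centring. The Sfmbt2 cluster on chromosome 2, an imprinted rodent series of the miR-467 and miR-669 type, had 9 of 49 listed microRNAs over the rule. All 9 were lower in Lin28a (median -1.21), beside 17.7% of all 424. In control 6 were lower (median -1.35), beside 28.8% of all 424. Their ratios lay near the limit, and 5 were lower with TMM scaling, 6 with median centring and 3 with a pseudocount of 10. MiR-669c-5p was the lowest of them with 34.5 CPM in P3 Lin28a and 120 in P1 Lin28a (-1.76). These microRNAs are near copies of each other, so reads may be shared between them.

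**Figure D3:**
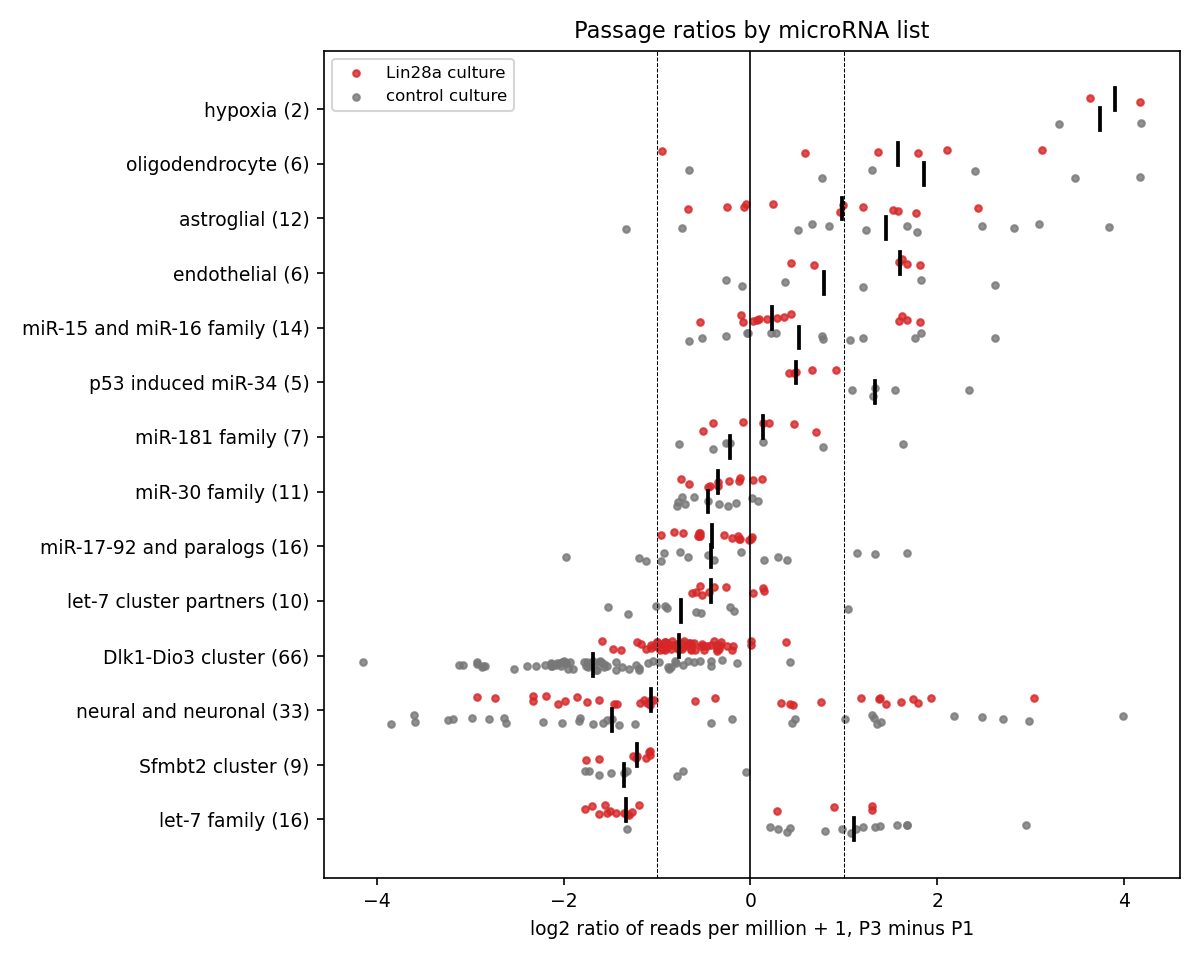
Log2 ratio of CPM + 1, P3 minus P1, for the members of 14 microRNA lists (number of members in parentheses), with the Lin28a culture in red above the control culture in grey. Black bars are medians and dashed lines 2-fold. Of the 14, only the let-7 list has medians past 2-fold of opposite sign, -1.33 in Lin28a and 1.10 in control.

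Families tied to growth lay mostly within 2-fold. Of all 424, 13.0% were higher and 17.7% lower in Lin28a, and 25.7% and 28.8% in control. Of the 16 members of miR-17-92 and its paralogs, which promote proliferation, none was past 2-fold in the Lin28a culture (median -0.41), against 3 higher and 3 lower in control. The 5 members of the p53-induced miR-34 family had ratios of 0.42 to 0.91 in Lin28a with none past 2-fold, and of 1.09 to 2.34 in control with all 5 higher. With TMM scaling or median centring 1 of them, miR-34a-5p, was past 2-fold in Lin28a too. With hairpin reads 2 of 6 were higher there (78 of all 554). MiR-34a-5p was at 442 CPM in P3 Lin28a and 234 in P1 Lin28a, against 882 in P3 control and 173 in P1 control. The pluripotency microRNAs of the miR-290 and miR-302 families had 11 listed and none over the rule, with a summed level of 1.64 CPM in P3 Lin28a and 2.05 in P1 Lin28a. The other lists with no call in the Lin28a culture were miR-30 (11 members, median -0.34), miR-181 (7, 0.13), miR-26 (4, -0.05) and miR-148 with miR-152 (6, 0.04). The 3 members of miR-221 and miR-222 had a median of -0.11 and no call either, and the medians of this list and of miR-26 turn positive with TMM scaling. The miR-15 and miR-16 family had 14 members with 4 higher, the arms of miR-322 and miR-503 (median 0.24).

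Lists for other cell types that such a culture could hold were small. Beside 13.0% higher and 17.7% lower of all 424, the blood and microglial list had 5 members with 2 higher (median 1.00), the endothelial list 6 with 4 higher (1.60), the muscle list 2 with 1 lower (-0.72) and the epithelial list 3 with 1 lower (-0.88). Of the defining blood microRNAs, miR-142-3p and miR-223-3p had 0 reads in P3 Lin28a and 1 and 7 reads in P1 Lin28a, miR-142-5p had 3 and 46, miR-451a had 3 and 0, and miR-150-5p had 15 and 1. The 2 members called higher on that list, miR-146b-5p (1.58) and miR-155-5p (1.23), respond to inflammatory signals in many cell types. The endothelial microRNA miR-126a-5p was at 591 CPM in P3 Lin28a and 369 in P1 Lin28a (0.68). The 4 endothelial members past 2-fold were the arms of miR-322 and miR-503. Muscle miR-1a-3p and miR-206-3p had 3 reads or fewer in each Lin28a library. With a pseudocount of 10 the muscle call ends. With hairpin reads 4 of 7 on the blood list were higher (78 of all 554) and 2 of 5 on the epithelial list lower (99 of all 554). Of 15 mesenchymal microRNAs 3 were higher and 5 lower (median -0.11, or 0.09 with TMM scaling; 1 and 2 with a pseudocount of 10), with miR-143-3p at 1500 CPM in P3 Lin28a and 596 in P1 Lin28a (1.33) and miR-199a-3p at 199 and 512 (-1.36). The 5 lower include miR-199a-3p and miR-199b-3p, which share 1 sequence. The part of such cells in the other ratios was not tested.

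Several members of a seed family differed from each other. The examples below, chosen after their values were seen, are printed with the seed in capitals because the shared seed and the unlike bases can be read off directly.
miR-351-5p: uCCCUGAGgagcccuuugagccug
miR-125b-5p: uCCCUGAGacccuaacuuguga
miR-27a-3p: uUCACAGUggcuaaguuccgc
miR-27b-3p: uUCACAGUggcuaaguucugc
miR-322-5p: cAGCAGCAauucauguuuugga
miR-16-5p: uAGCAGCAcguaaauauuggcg
miR-10a-5p: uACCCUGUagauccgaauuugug
miR-10b-5p: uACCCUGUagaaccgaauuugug
MiR-351-5p was at 9110 CPM in P3 Lin28a and 2379 in P1 Lin28a (1.94), and miR-125b-5p with the same seed at 14374 and 20895 (-0.54). MiR-27a-3p was at 1736 CPM in P3 Lin28a and 455 in P1 Lin28a (1.93), and miR-27b-3p at 21358 and 22396 (-0.07). These pairs come from different clusters: miR-27a lies with miR-23a and miR-24-2 on chromosome 8, where 4 of 5 members were higher (median 1.36), and miR-351 maps to chromosome X. Of all 424, 13.0% were higher in the Lin28a culture.

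MiR-322-5p was at 2938 CPM in P3 Lin28a and 832 in P1 Lin28a (1.82), against 1230 in P3 control and 1480 in P1 control (-0.27). MiR-16-5p with the same seed was at 39741 and 37746 CPM in P3 and P1 Lin28a (0.07). The other arm of miR-322 was higher at P3 in both cultures. MiR-322-3p was at 440 CPM in P3 Lin28a and 146 in P1 Lin28a (1.59), against 303 and 131 in P3 and P1 control (1.20). The chromosome X cluster of miR-322, miR-503, miR-450 and miR-542 had 5 of 8 members higher in the Lin28a culture (median 1.35, and 0.87 in control). In control 3 of the 8 were higher. Of all 424, 13.0% were higher in Lin28a and 25.7% in control. MiR-10b-5p, from the HoxD cluster, was at 7.84 CPM in P3 Lin28a and 60.2 in P1 Lin28a (-2.79), against 10.4 and 148 CPM in P3 and P1 control. MiR-10a-5p, from the HoxB cluster, was at 69.9 CPM in P3 Lin28a and 62.6 in P1 Lin28a (0.16), against 23.6 and 143 CPM in P3 and P1 control (-2.55).

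The passage ratios of both cultures were then set side by side. They have no library in common. In control, 116 of 428 microRNAs over the same rule were higher at P3 (27.1%) and 124 lower (29.0%), larger shares than in the Lin28a culture. Over the 424 microRNAs of the Lin28a culture, 109 were higher (25.7%) and 122 lower (28.8%) in control. The median size of the ratio was 0.63 in Lin28a and 1.13 in control, and 314 of 424 microRNAs had the larger ratio in control. The smaller ratios in the Lin28a culture were thus spread over most microRNAs. In control the arms of a hairpin could differ, as for miR-221 (-2.14 for 5p and 1.10 for 3p) and miR-18a (1.68 and -1.12). In the Lin28a culture these arms were at 0.05 and -0.46, and at -0.14 and -0.55. Over 120 hairpins the arm differences of the 2 cultures had a Pearson r of 0.046. A larger ratio in control therefore need not hold for both arms. Each culture is 1 pair of libraries, and the difference in ratio size was not tested.

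The direction was mostly shared. The sign was the same for 77.1% of the 424, and the ratios correlated with Pearson r 0.759 and Spearman rho 0.726, or with r 0.801 over the 408 outside the let-7 list. These are descriptions over microRNAs, which are not independent. Of the microRNAs higher at P3, 43 were so in both cultures, 78.2% of those in Lin28a and 39.4% of those in control. Of the lower ones 51 were shared, 68.0% of those in Lin28a and 41.8% of those in control. The 5 microRNAs lower in Lin28a and higher in control were miR-98-5p, let-7i-5p, let-7d-5p, let-7a-5p and let-7i-3p, and none showed the reverse.

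Among microRNAs at 100 CPM or more in any library, 4 of the 5 with the largest downward difference of the Lin28a ratio from the control ratio were let-7 guides, at -2.65 to -2.90. The other was miR-362-3p, with 21.3 CPM in P3 Lin28a and 30.0 in P1 Lin28a (-0.48), against 107 in P3 control and 21.5 in P1 control (2.26). Its 5p arm went the other way, at 0.71 in Lin28a and -0.38 in control. The 5 with the largest upward difference were miR-10a-5p (2.70), miR-375-3p (2.69), miR-758-3p (2.55), miR-409-5p (2.52) and miR-199a-5p (2.46). All 5 had ratios below -2 in control, and in the Lin28a culture miR-10a-5p was near 0 and the other 4 were below 0. The 3p arms of 2 of them differed less between the cultures. MiR-409-3p was at -0.64 in Lin28a and -1.04 in control. MiR-199a-3p, with the sequence of miR-199b-3p, was at -1.36 and -1.22. MiR-375-3p, known from endocrine and neuroendocrine cells, was at 55.8 CPM in P3 Lin28a and 118 in P1 Lin28a, against 7.00 in P3 control and 107 in P1 control.

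**Figure D4:**
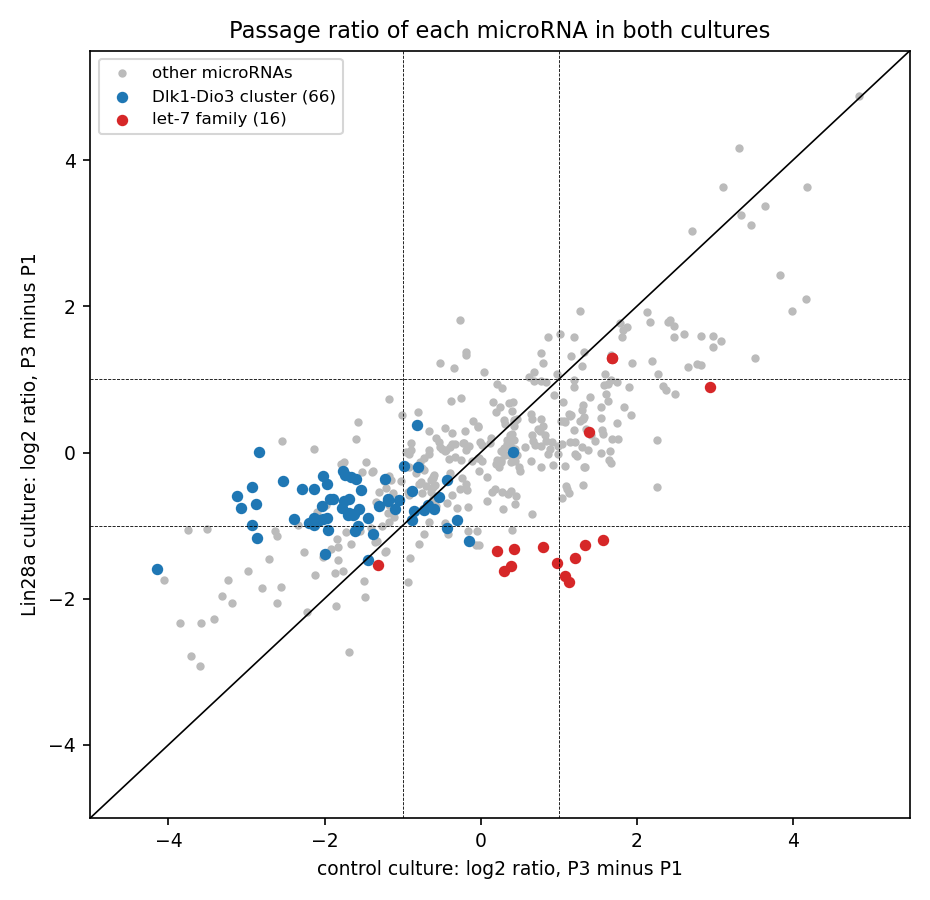
Log2 ratio of CPM + 1, P3 minus P1, of the 424 microRNAs in the control culture (x) and in the Lin28a culture (y). The diagonal marks equal ratios and the dashed lines 2-fold. The let-7 list (red) lies mostly at the lower right, and the Dlk1-Dio3 list (blue) lies mostly between the diagonal and 0.

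MicroRNAs inside protein-coding genes were compared with their host in RNA-seq of the same groups. A pair was kept where a RefSeq locus of that arm lies inside the host gene (GRCm38.p6). In 95 pairs of 91 microRNAs and 49 hosts, 67 pairs had the same sign, with Pearson r 0.718 and Spearman rho 0.614 as a description over pairs that share hosts and libraries. Of 16 pairs with the microRNA past 2-fold, 15 had the same sign and in 7 the host was past 2-fold the same way. Slit2, the axon guidance ligand that hosts a miR-218 hairpin, was at 14.2 FPKM in P3 Lin28a and 93.2 in P1 Lin28a (-2.63, on FPKM + 1). Tenm4, a teneurin of the cell surface and host of miR-708, was at 12.4 and 45.2 (-1.79). Aatk, a kinase gene that hosts miR-338, was at 15.2 FPKM in P3 Lin28a and 4.85 in P1 Lin28a (1.47).

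Of those 16, the pair of opposite sign was miR-425-3p, at 34.0 CPM in P3 Lin28a and 15.6 in P1 Lin28a (1.08), and its host Dalrd3, at 19.1 and 20.1 FPKM (-0.07). MiR-153-3p was at 756 CPM in P3 Lin28a and 2037 in P1 Lin28a (-1.43), and its host Ptprn2, a gene of a secretory granule protein, at 9.70 and 19.1 FPKM (-0.91). MiR-98-5p and Huwe1 had the same sign in the Lin28a culture, and in control opposite ones, at 1.13 for miR-98-5p and -0.97 for Huwe1. The other arm, miR-98-3p, was at -1.54 in Lin28a and -1.32 in control.

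**Figure D5:**
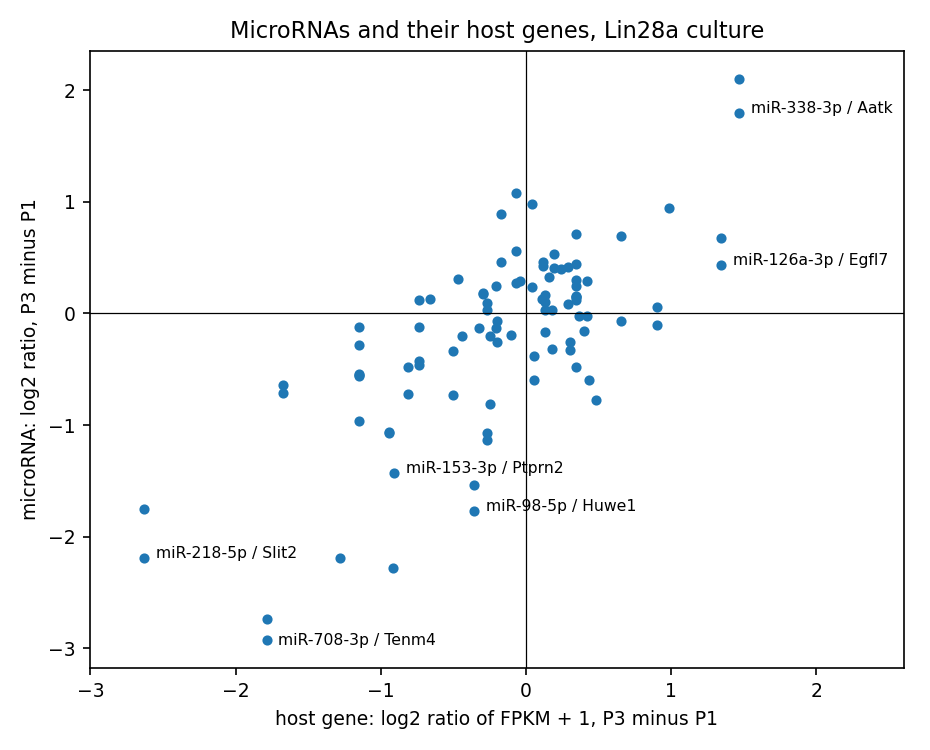
Log2 ratio, P3 minus P1, in the Lin28a culture of 91 microRNAs (y, CPM + 1) against their host genes (x, FPKM + 1), 95 pairs. MiR-708, miR-218 and miR-338 lie with their hosts Tenm4, Slit2 and Aatk, past 2-fold on both axes.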

How the data were processed

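Read counts on mature microRNAs were used as deposited by the authors, without normalization, per the file headers. The deposited counts on the primary hairpin served as an alternative, and do not separate the 2 arms of a hairpin. FPKM values of RNA-seq were deposited per gene, with the unit taken from the tool names and the values, and used for Lin28a, markers and host genes. Bowtie 1.0.0, TopHat2 2.0.6, Cufflinks 2.1.1 and mm9 are named per the submitters' processing notes, without roles. The labels name a stranded total RNA kit for every library, and a small RNA protocol is not given in the sources used here. Polysome files were not used.

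Counts were scaled to 1000000 per library, a microRNA not listed having 0 reads, and compared as log2 ratios with a pseudocount of 1. Past 2-fold is a description, since 1 library a group allows no test. Counting intervals are exact conditional binomial (Clopper-Pearson, 95%). Of 30 microRNAs with more than 1 RefSeq locus, 25 had more mature than hairpin reads (by over 1.05 times) and appear counted at each locus, against 1 of 338 with 1 locus. The 1 was let-7a-5p, which appears to have a further locus that the sequences used do not hold. Levels of different microRNAs are therefore not comparable, while ratios between libraries are. RefSeq sequences matched 368 of 424 microRNAs. Genomic neighbours are hairpins within 10 kb on 1 strand of GRCm38, from which no coordinates are given.

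The 424 members, the 23 lists and the alternatives were chosen with earlier results of these data known. Named microRNAs are the let-7 guides, the 10 most abundant, the highest and lowest ratios, up to 4 per list, the largest differences between cultures and those with hosts. Seed, arm and cluster partners and a few others were chosen after their values were seen. Scripts were tested on simulated counts. Python 3.11.15, pandas 2.3.3, scipy 1.17.1 and edgeR 4.0.16 (TMM factors only) were used. Columns of other samples numbered 0.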

Additional observations from a re-analysis of the deposited data

Results flagged for a closer look

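The 5 microRNAs named here were past 2-fold in opposite directions in the 2 cultures, lower at P3 in Lin28a and higher at P3 in control, and all 5 are let-7 family strands. The log2 ratio in the Lin28a culture minus that in control was -2.90 for miR-98-5p, -2.77 for let-7i-5p, -2.76 for let-7d-5p, -2.65 for let-7a-5p and -2.60 for let-7i-3p. With 1 library a group these differences were not tested. Let-7i-3p was the least abundant, with 140 reads in P3 Lin28a and 339 in P1 Lin28a, against 1317 in P3 control and 395 in P1 control.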

How the results depend on the processing

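The alternatives were TMM scaling, median centring, totals without the 10 most abundant microRNAs, pseudocounts of 0.1 and 10, a filter at 100 CPM, no filter, a 1.5-fold limit and reads on the primary hairpin. In the Lin28a culture the counts higher and lower at P3 were 55 and 75. They stayed within 1.5 times of that except for 48 lower with a pseudocount of 10, 30 higher and 38 lower with the 100 CPM filter, and 86 higher and 134 lower at 1.5-fold. In control the 100 CPM filter gave 67 higher and 65 lower, from fewer microRNAs. The let-7 guide share had a fold of P3 over P1 of 0.621 in Lin28a and 2.30 in control with hairpin reads, and of 0.686 and 2.48 without the 10 most abundant microRNAs outside the family, each beyond the counting interval of the main value and in the same direction. Let-7c-1-3p turned to 0.37 with hairpin reads, where it has the same counts as let-7c-5p. That value is thus not a ratio of the 3p arm alone. Of 105 named microRNAs 57 were past 2-fold, and 53 of them were so with TMM scaling. Those lost there were let-7d-5p, which lay just inside the limit, and miR-127-3p, miR-375-3p and miR-199a-5p. Another 3 named ones were newly higher past 2-fold with TMM scaling, and also with median centring: let-7b-5p, miR-34a-5p and miR-146a-5p. No paired analysis was possible because each group has 1 library. Depth limits microRNAs near 10 CPM most, and there the pseudocount also weighs most.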
